A study of Mus musculus with 3 samples.

Results

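Interferon-stimulated and nucleic acid response genes are described here across 3 arrays of C2C12 cells, an immortalised line of mouse myoblasts, the precursors of muscle fibres. The genes were chosen by name: 41 symbols were given, with earlier results of these data known, and 39 of them have at least 1 probe set whose annotation lists that gene alone, of 12393 genes in all. The 39 genes have 55 such probe sets. The series measured RNA in C2C12 cells transfected with DGKzeta (diacylglycerol kinase zeta, which phosphorylates diacylglycerol to phosphatidic acid), in cells transfected with EGFP (enhanced green fluorescent protein), and in untreated cells. All 3 samples carry the time label 12 h. Cells were plated 18 h before transfection with the FuGene reagent, and the labels describe no genetic change of the line itself. Each of the 3 groups is a single array, so there are no replicates, no p-value is given and no difference has a replicate check. The labels do not say whether untreated cells received the reagent or an empty plasmid. In the comparison of EGFP with untreated cells, reagent, DNA and EGFP protein thus cannot be told apart.

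Cells read foreign nucleic acid as a sign of infection. Sensors of RNA and DNA in the cytosol switch on interferon genes, and secreted interferon binds its receptor, whose kinases activate STAT transcription factors. A complex of STAT proteins with Irf9 then binds interferon-stimulated response elements in the promoters of a large set of genes that block viral replication, degrade RNA, present antigen and call in leukocytes. Most of these genes are low in cells that have not been stimulated.

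The promoters below belong to members that were 2-fold or more higher in a transfected culture than in untreated cells (Ifit1, Ifitm1 and Tapbp), or that passed the detection floor described below in both transfected cultures and not in untreated cells (Ifit1, Ifit3 and Cxcl10), as far as the promoter table lists them. They are shown because interferon acts through a short repeated motif. The motif searched was the core of the interferon-stimulated response element, GAAA and GAAA with any 2 bases between them, on both strands (TTTC and TTTC on the other). It was sought in windows of 300 bases, 250 before and 50 after each gene's start, from RefSeq (build GRCm38.p6). The 250 bases before the start are printed 5′ to 3′ on the gene's strand, with matches in capitals. Ifit1 lies at chr19:34640639-34640888 (plus strand), Ifit3 at chr19:34583279-34583528 (plus strand), Cxcl10 at chr5:92348890-92349139 (minus strand), Ifitm1 at chr7:140967826-140968075 (plus strand) and Tapbp at chr17:33919228-33919477 (plus strand).
Ifit1: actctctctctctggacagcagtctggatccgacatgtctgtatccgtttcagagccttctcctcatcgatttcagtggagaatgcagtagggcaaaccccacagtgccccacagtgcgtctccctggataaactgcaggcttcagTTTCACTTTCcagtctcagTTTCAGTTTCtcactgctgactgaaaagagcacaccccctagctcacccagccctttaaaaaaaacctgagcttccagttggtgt
Ifit3: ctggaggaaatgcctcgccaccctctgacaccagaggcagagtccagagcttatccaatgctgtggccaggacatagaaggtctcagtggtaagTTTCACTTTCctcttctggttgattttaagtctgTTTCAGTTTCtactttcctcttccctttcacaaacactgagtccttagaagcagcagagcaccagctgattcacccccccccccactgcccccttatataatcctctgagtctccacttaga
Cxcl10: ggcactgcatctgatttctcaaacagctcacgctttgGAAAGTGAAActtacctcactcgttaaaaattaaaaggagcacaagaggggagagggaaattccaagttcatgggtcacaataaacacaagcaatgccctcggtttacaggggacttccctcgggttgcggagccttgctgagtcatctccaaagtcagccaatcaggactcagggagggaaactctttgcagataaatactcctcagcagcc
Ifitm1: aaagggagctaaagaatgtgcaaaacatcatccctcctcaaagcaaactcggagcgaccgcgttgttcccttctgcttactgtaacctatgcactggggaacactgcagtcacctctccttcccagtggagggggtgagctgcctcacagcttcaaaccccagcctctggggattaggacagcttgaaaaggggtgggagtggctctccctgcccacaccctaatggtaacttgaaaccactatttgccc
Tapbp: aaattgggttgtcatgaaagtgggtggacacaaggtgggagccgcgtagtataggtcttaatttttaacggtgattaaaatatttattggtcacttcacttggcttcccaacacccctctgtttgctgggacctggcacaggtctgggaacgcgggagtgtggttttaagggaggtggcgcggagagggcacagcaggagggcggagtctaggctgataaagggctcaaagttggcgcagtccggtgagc

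Ifit1 and Ifit3, both on chromosome 19, each had 2 matches, and Cxcl10 had 1. The matches begin 104 and 85 bases before the start of Ifit1, 156 and 122 bases before that of Ifit3 and 213 bases before that of Cxcl10. In Ifit1 and Ifit3 the first match reads TTTCACTTTC and the other TTTCAGTTTC. The windows of Ifitm1 and Tapbp hold no match, which says only that these letters are not in these windows. The table lists promoters of 33 of the 41 members, and 16 of these 33 genes (48.5%) have a match in at least 1 window, against 3.99% of all 27025 genes in the table. The share was similar in members with signal and in those without: 9 of 19 genes measured on at least 1 array had a match (47.4%), and 6 of 12 genes under the floor on every array (50%); the remaining listed promoters belong to members with no probe set of their own. Another motif, TTCNNNGAA, the core of the gamma-activated site that STAT dimers bind, was found for 12 of the 33 genes (36.4%), against 9.55% of all genes; it may overlap the first motif. A match is a description of sequence and not a mapped binding site. Because the members were chosen as interferon-stimulated genes, their higher shares of both motifs may follow from that choice and are no result of these arrays.

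Values are deposited MAS5 signals, which are linear intensities in arbitrary units, and a gene is represented by its brightest probe set. A gene counted as measured on an array at a signal of at least 107, the median of all values pooled. Ratios were taken after raising lower values to this floor, so a ratio with 1 array under it is a bound, written "at least". The floor was passed by 6625 genes in DGKzeta cells, 6843 in EGFP cells and 6702 in untreated cells. Dgkz, the transfected gene, had signals of 13466 in DGKzeta cells, 1053 in EGFP cells and 1500.1 in untreated cells. A single probe set had an error of 0.40 on the log2 scale in DGKzeta over EGFP, 0.50 in DGKzeta over untreated and 0.27 in EGFP over untreated. This error is the SD from 2245 genes with 2 probe sets measured throughout. It compares probes on 1 RNA extract and does not cover the spread between cultures. The 3′ to 5′ signal ratio of the actin control probe sets was 2.55 in DGKzeta, 1.43 in EGFP and 1.27 in untreated cells, and that of the Gapdh control 0.931, 0.902 and 0.841 in the same order; their part in the results below was not tested.

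Of the 39 genes, 15 were measured on all 3 arrays (38.5%, against 51.9% of all genes), 6 on 1 or 2 arrays, and 18 on none (46.2%, against 43.6% of all genes). Both transfected cultures had more of these genes above the floor, with 20 in DGKzeta and 19 in EGFP cells, against 16 in untreated cells. Of all 12393 genes, 6625 were above it in DGKzeta and 6843 in EGFP cells, against 6702 in untreated cells. The genes Ifit1, Ifit3, Ccl5 and Cxcl10 were measured on both transfected arrays and under the floor in untreated cells. This pattern held for 4 of 39 members and for 0.871% of all genes. Adar alone showed the opposite pattern, which 0.5% of all genes had, with an untreated signal of 107.7 that barely reached the floor. Of the 6 members under the floor on 1 or 2 arrays, the deposited signal was higher in EGFP than in untreated cells for 5 (66.2% of all such genes), higher in DGKzeta than in untreated cells for 5 (39.7%), and higher in DGKzeta than in EGFP cells for 2 (28.5%). Against untreated cells, the floor fixes the direction of the 4 genes named above and of Adar. The counts over untreated thus largely restate those patterns and are no further result.

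**Figure D1:**
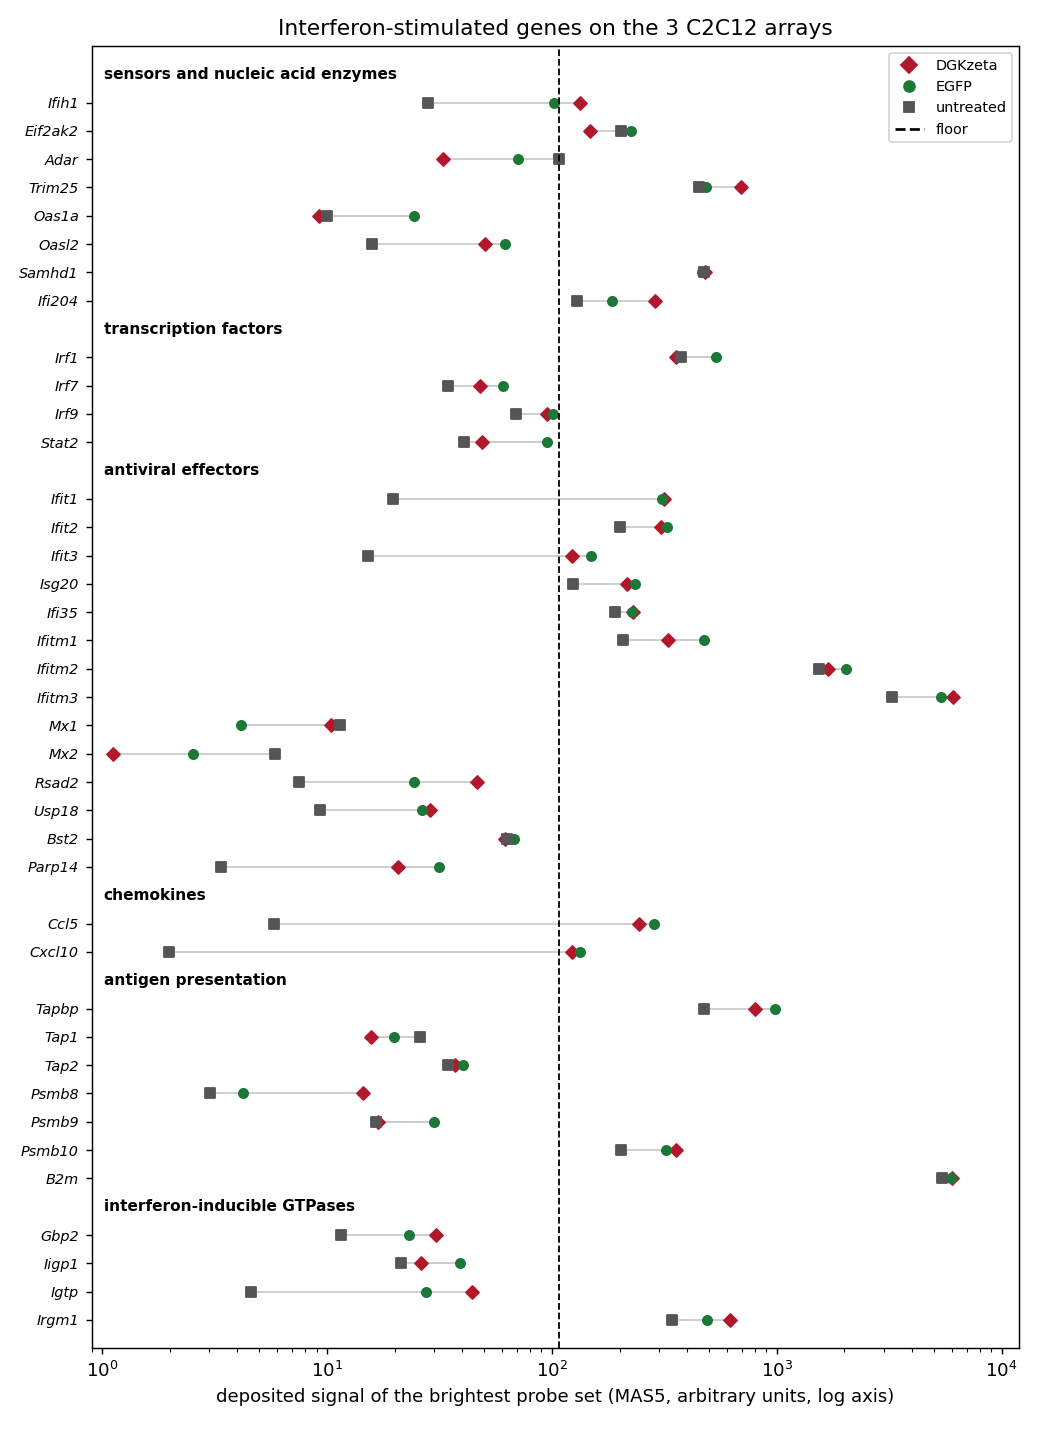
Deposited signals (log axis, arbitrary units) of the brightest probe set of the 39 members, 1 point per array, grouped by role, with the floor of 107 as a dashed line. Ifit1, Ifit3, Ccl5 and Cxcl10 lie right of the floor in DGKzeta and EGFP cells and left of it in untreated cells, while 18 genes stay left of it on every array.

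The comparison of EGFP with untreated cells asks what transfection with a control gene does to these genes. Of 20 members measured on 1 or both arrays, 4 were 2-fold or more higher in EGFP cells (0.361% of all measured genes were) and 0 were 2-fold or more lower (0.303%). At the lower limit of 1.5-fold, 8 members were higher (4.13% of all measured genes) and 0 lower (1.51%). The ratio was above 0 for 18 of the 20 members (53.7% of all measured genes), and the members' median log2 ratio was 0.51, against 0.02 over all measured genes. Members that passed the floor only in transfected cells had to be higher there. Among the 15 members measured on all 3 arrays, which this does not touch, 14 had a ratio above 0 (52.7% of all such genes did), with a median of 0.51, against 0.01 over all such genes. Of these 15, 2 were 2-fold or more higher in EGFP cells, against 19 of all 6434 such genes. The plot of cumulative shares shows the members to the right of all genes over nearly the whole range.

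The comparison of DGKzeta with untreated cells joins the kinase with transfection and shares the untreated array with the one above. Of 21 members measured on 1 or both arrays, 3 were 2-fold or more higher in DGKzeta cells (1.34% of all measured genes) and 0 were 2-fold or more lower (2.8%). At 1.5-fold, 11 members were higher (7.09% of all measured genes) and 0 lower (9.93%). The ratio was above 0 for 18 of the 21 members (48.3% of all measured genes), and the median log2 ratio was 0.61, against -0.02 over all measured genes. Here too, members that passed the floor only in transfected cells had to be higher there, with Ifit1 and Ccl5 among the 3. Of the 15 members measured on all 3 arrays, 13 had a ratio above 0 (48.8% of all such genes), with a median of 0.63, against -0.01 over all such genes. Of these 15, 1 was 2-fold or more higher in DGKzeta cells, against 75 of all 6434 such genes.

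The comparison of DGKzeta with EGFP cells asks whether the kinase differs from another transfected gene. Of 20 members measured on 1 or both arrays, 0 were 2-fold or more higher in DGKzeta cells (0.347% of all measured genes) and 0 were 2-fold or more lower (2.84%). At 1.5-fold, 1 member was higher (3.51% of all measured genes), which is Ifi204, and 2 were lower (11.6%), which are Irf1 and Eif2ak2. The median log2 ratio was -0.04, against -0.02 over all measured genes, and 10 of 20 members had a ratio above 0 (47.4% of all measured genes). Among the 15 members measured on all 3 arrays the median was 0.01, with 8 above 0 (48.8% of all such genes). Members' ratios thus ran from -0.59 to 0.63, and their median differed from that of all genes by -0.02. With 1 array a group, this does not show that both transfections act alike on these genes.

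**Figure D2:**
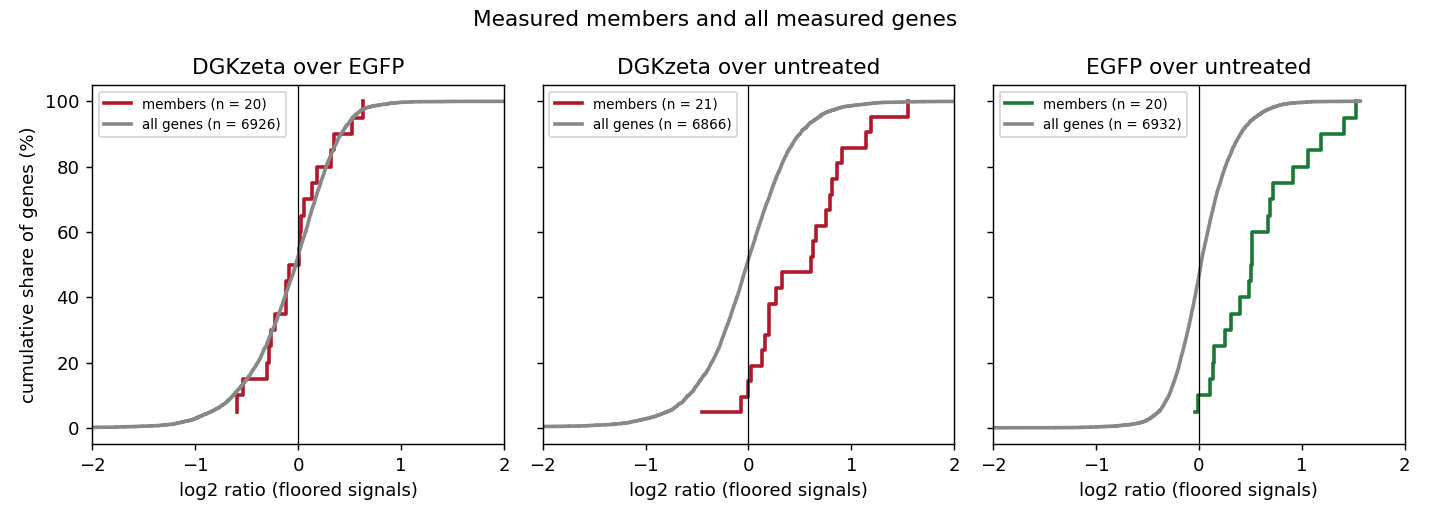
Cumulative share (%) of log2 ratios of measured members (coloured) and of all measured genes (grey) in each comparison, with the number of genes in the legend. The members' curve follows that of all genes in DGKzeta over EGFP and lies to its right in both comparisons with untreated cells, where the members' medians are 0.61 and 0.51. Members that passed the floor only in transfected cells had to be higher there.

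Of 14 antiviral effectors with a probe set, 8 were measured on at least 1 array and 6 on none, as were 43.6% of all genes. Ifit1, which binds viral RNA lacking normal cap methylation, had signals of 314 in DGKzeta cells and 308 in EGFP cells, against 19.7 in untreated cells. It was at least 2.93-fold higher in DGKzeta cells and at least 2.88-fold higher in EGFP cells than in untreated cells, and the transfected arrays differed by a log2 ratio of 0.03. Ifit2, a relative that also blocks viral translation, had signals of 307 in DGKzeta and 326 in EGFP cells, against 202 in untreated cells, log2 ratios over untreated of 0.61 and 0.69. Both transfected arrays were thus above the untreated one for these relatives and close to each other.

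Ifit3, which stabilises complexes of this family in human cells, had a signal of 123 in DGKzeta and 149.9 in EGFP cells, against 15.3 in untreated cells. Its transfected signals lay only a little above the floor, so the bounds were low, at least 1.15-fold for DGKzeta and at least 1.40-fold for EGFP cells. Isg20, a 3′ to 5′ exonuclease that degrades single-stranded RNA, had signals of 216 in DGKzeta and 234 in EGFP cells, against 124.5 in untreated cells. Its log2 ratio over untreated was 0.79 in DGKzeta and 0.91 in EGFP cells. Ifi35, a leucine zipper protein induced by interferon, was closer on the arrays, at 229.96 in DGKzeta, 228 in EGFP and 192 in untreated cells.

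The Ifitm genes encode small membrane proteins that stop enveloped viruses from fusing with endosomes, and Ifitm3 had a signal of 6104 in DGKzeta and 5358 in EGFP cells, against 3261 in untreated cells. Its log2 ratio over untreated was 0.90 in DGKzeta and 0.72 in EGFP cells. Ifitm1 had 328 in DGKzeta and 475 in EGFP cells, against 208 in untreated cells, so it was 2.28-fold higher in EGFP cells and 1.58-fold higher in DGKzeta cells than in untreated cells. The EGFP array was the higher of the transfected pair, with a log2 ratio of DGKzeta over EGFP of -0.54. Ifitm2 had 1691 in DGKzeta and 2035 in EGFP cells, against 1545 in untreated cells, log2 ratios over untreated of 0.13 and 0.40. Each of the 3 relatives thus had a higher signal on both transfected arrays, Ifitm2 by the least. Its ratio of 0.13 in DGKzeta cells lay inside the error of a probe set.

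The other effectors with a probe set stayed under the floor on every array. Usp18, a protease that removes Isg15 from proteins and dampens the interferon receptor, had signals of 28.7 in DGKzeta and 26.5 in EGFP cells, against 9.36 in untreated cells. Rsad2, which makes a chain-terminating nucleotide, had 46.7 in DGKzeta and 24.3 in EGFP cells, against 7.55 in untreated cells by the brightest of its 3 probe sets. Parp14, a mono-ADP-ribosyltransferase, had 20.8 in DGKzeta and 31.4 in EGFP cells, against 3.39 in untreated cells. Signals this low have no reliable ratio, and none is given. Mx1 and Mx2, GTPases that trap viral nucleoproteins, had between 1.12 and 11.4 on every array, and Bst2, which tethers budding virions, between 61.7 and 67.7. Isg15, the ubiquitin-like modifier, and Xaf1 have no probe set annotated to them alone and are not analysed here.

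Both chemokines were above the floor in transfected cells and under it in untreated cells. Ccl5, which attracts T cells and monocytes, had signals of 244 in DGKzeta and 286 in EGFP cells, against 5.82 in untreated cells, at least 2.28-fold and at least 2.66-fold higher. Cxcl10, a ligand of Cxcr3 on activated lymphocytes, had 123 in DGKzeta and 133.1 in EGFP cells, against 1.99 in untreated cells. Because both transfected signals lie just above the floor, Cxcl10 was bounded at only 1.15-fold for DGKzeta and 1.24-fold for EGFP cells. Each chemokine was slightly lower in DGKzeta than in EGFP cells, with log2 ratios of -0.23 for Ccl5 and -0.12 for Cxcl10, both inside the error of a probe set.

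**Figure D3:**
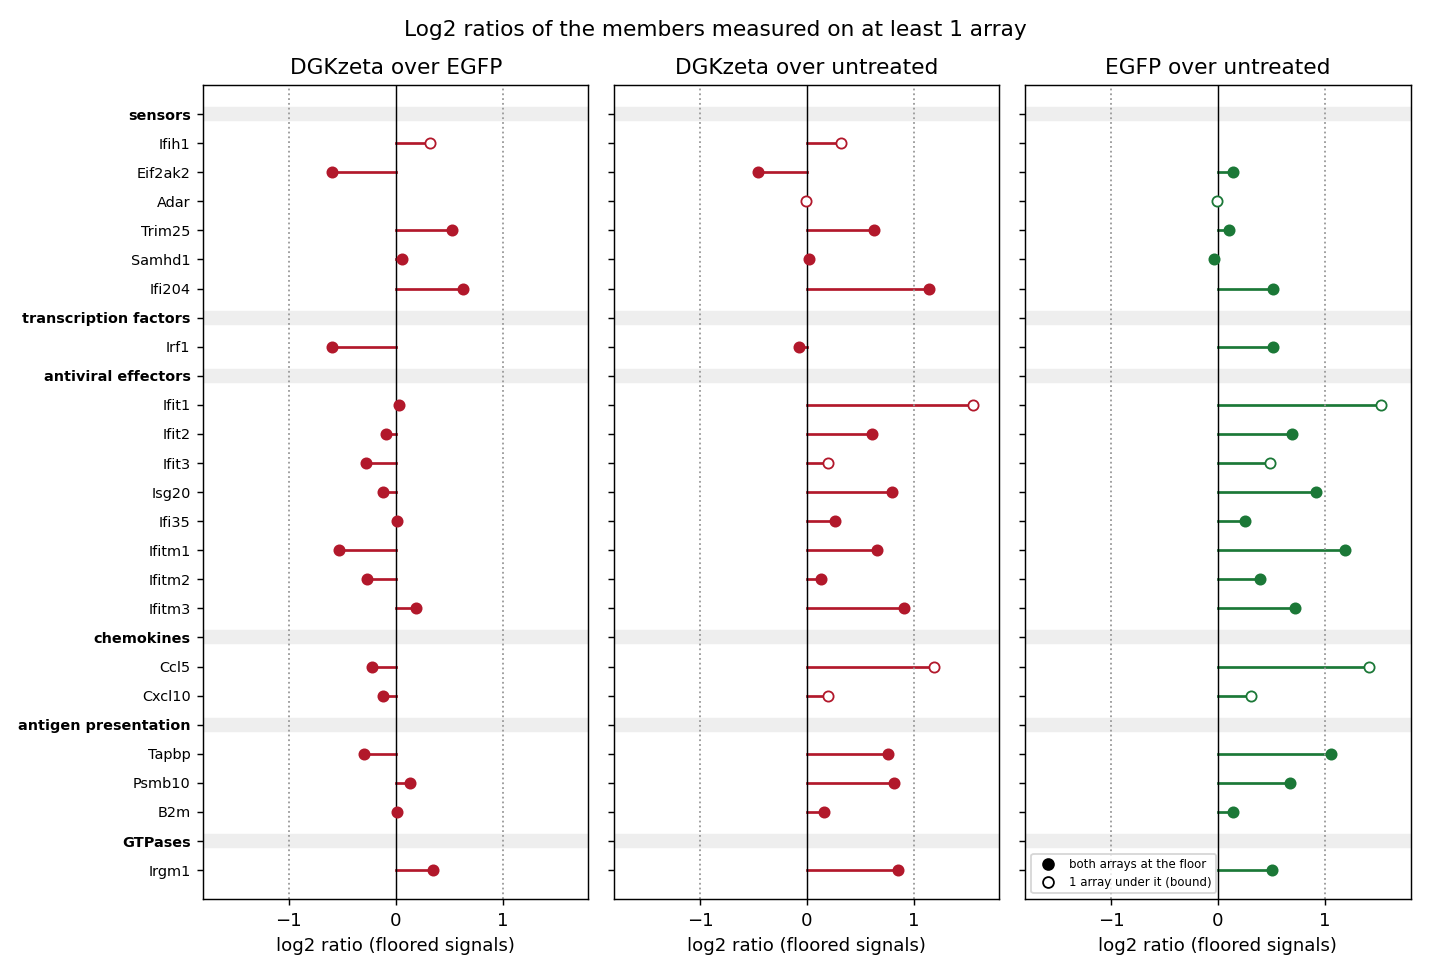
Log2 ratios of floored signals for the 21 members measured on at least 1 array, in the 3 comparisons; open points are bounds with 1 array under the floor, and dotted lines mark 2-fold. Ifit1, Ccl5 and Ifi204 pass 2-fold in DGKzeta over untreated, Ifit1, Ccl5, Ifitm1 and Tapbp in EGFP over untreated, and none in DGKzeta over EGFP.

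Among genes of antigen presentation, Tapbp encodes tapasin, which loads peptides onto class I molecules, and had signals of 802 in DGKzeta and 986 in EGFP cells, against 474 in untreated cells. It was 2.08-fold higher in EGFP cells and 1.69-fold higher in DGKzeta cells than in untreated cells. The other Tapbp probe set was under the floor on all arrays and gives no ratio. Psmb10, a catalytic subunit of the immunoproteasome, had 355 in DGKzeta and 324 in EGFP cells, against 203 in untreated cells, log2 ratios over untreated of 0.81 and 0.68. The other catalytic subunits of that particle, Psmb8 and Psmb9, stayed under the floor, between 3.01 and 29.9. The constitutive subunits that these 3 replace were bright on every array: Psmb7, the counterpart of Psmb10, had 7166 in DGKzeta and 8382 in EGFP cells, against 7782 in untreated cells. The log2 ratios over untreated of Psmb5, Psmb6 and Psmb7 were -0.23, 0.16 and -0.12 in DGKzeta cells, and 0.0021, -0.07 and 0.11 in EGFP cells.

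B2m, the light chain of class I molecules, had signals of 6024 in DGKzeta and 5963 in EGFP cells, against 5402 in untreated cells by its brightest probe set. The other gave 3754 in DGKzeta and 3586 in EGFP cells, against 3653 in untreated cells. The 3 arrays lay close together by both, with log2 ratios over untreated between -0.03 and 0.16. Tap1 and Tap2, which pump peptides into the endoplasmic reticulum, stayed under the floor, with signals of at most 40.1 for the brightest probe set.

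Sensors and enzymes that act on nucleic acid were mixed. Ifi204, a DNA-binding protein of the HIN-200 family, had signals of 288 in DGKzeta and 186 in EGFP cells, against 130.1 in untreated cells, 2.21-fold higher in DGKzeta cells and 1.43-fold higher in EGFP cells than in untreated cells. It was also 1.55-fold higher in DGKzeta than in EGFP cells (log2 ratio 0.63), the highest ratio of a member in that comparison. Ifi204 has close relatives on the same chromosome, so its probe set may read more than 1 gene. A probe set annotated to Mndal, Ifi211, Ifi205 and Ifi204 together had 441 in DGKzeta and 322 in EGFP cells, against 249.6 in untreated cells, 1.77-fold and 1.29-fold higher than in untreated cells. Ifih1, which encodes the double-stranded RNA sensor MDA5, had 134 in DGKzeta and 102.6 in EGFP cells, against 28.2 in untreated cells, and passed the floor in DGKzeta cells alone.

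Eif2ak2, the RNA-activated kinase PKR that halts translation, had 148 in DGKzeta and 224 in EGFP cells, against 203 in untreated cells. Its log2 ratio was -0.59 over EGFP and -0.45 over untreated in DGKzeta cells, the lowest among members over untreated. Adar, which edits adenosine in double-stranded RNA, had 32.9 in DGKzeta and 70.6 in EGFP cells, against 107.7 in untreated cells. The difference of Eif2ak2 from untreated cells lay inside the error of a probe set, and its other probe set was under the floor, at 42.6 in DGKzeta and 27.6 in EGFP cells, against 30.9 in untreated cells. The floor leaves Adar no usable ratio. Oas1a and Oasl2, of the oligoadenylate synthetase family, stayed under the floor, at 9.26 and 50.7 in DGKzeta cells, 24.5 and 62.0 in EGFP cells, and 10.0 and 15.9 in untreated cells.

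Trim25 and Samhd1 each have more than 1 probe set above the floor, and these disagreed. Trim25, a ubiquitin ligase that activates the RNA sensor RIG-I, had 694 in DGKzeta and 483 in EGFP cells, against 449.7 in untreated cells by its brightest probe set, and 296 in DGKzeta and 412 in EGFP cells, against 279 in untreated cells by the next. The log2 ratio of DGKzeta over EGFP was 0.52 by the brightest and -0.47 by the next. Samhd1, which hydrolyses deoxynucleotides, had 481 in DGKzeta and 463 in EGFP cells, against 474 in untreated cells by its brightest probe set. The next gave 294 in DGKzeta and 485 in EGFP cells, against 407 in untreated cells, a log2 ratio over EGFP of -0.72 where the brightest had 0.05. No direction is given for either gene in DGKzeta cells over EGFP cells.

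Of the transcription factors, Irf1 alone was measured. Irf1, which drives interferon-gamma targets, had signals of 355 in DGKzeta and 537 in EGFP cells, against 375 in untreated cells. The EGFP array was the high one, with a log2 ratio of EGFP over untreated of 0.52, while DGKzeta over untreated was -0.08. Irf7, which amplifies interferon production, and Irf9 and Stat2, which form the complex that binds response elements, were under the floor, between 34.5 and 100.9. Of the interferon-inducible GTPases that attack the vacuoles of intracellular pathogens, Irgm1 was measured, at 622 in DGKzeta and 489 in EGFP cells, against 343 in untreated cells, log2 ratios over untreated of 0.86 and 0.51. Gbp2, Iigp1 and Igtp were under the floor, between 4.61 and 44.1.

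Signals of the 18 members under the floor on every array give no direction for a single gene, so only values over the set are given. Their median signal was 29.7 in DGKzeta and 28.7 in EGFP cells, against 13.7 in untreated cells, with no median of all such genes to set beside it. The signal in EGFP cells was above that in untreated cells for 15 of the 18, against 53.4% of all genes under the floor on every array. DGKzeta was above untreated for 13 of the 18 (47.4% of such genes), and DGKzeta above EGFP for 6 (44.3%). Over all 39 members, whatever their level, EGFP was above untreated for 34 (53.6% of all genes), DGKzeta above untreated for 31 (47.8%), and DGKzeta above EGFP for 16 (45.9%).

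The wider pathway was read through 92 further genes, of which 72 have a named probe set. Interferon genes themselves were not measured: Ifnb1, the beta interferon of fibroblasts, had signals of 7.66 in DGKzeta and 17.7 in EGFP cells, against 0.981 in untreated cells, and Ifna1, Ifna2, Ifna4 and Ifng had at most 22.8. Of 35 pathway genes measured in EGFP or untreated cells, 0 were at least 2-fold higher (0.361% of all measured genes) or lower (0.303%) in EGFP cells, with a median log2 ratio of 0.08. Of 34 measured in DGKzeta or untreated cells, 2 (Mavs and Tank) were 2-fold or more higher in DGKzeta cells (1.34% of all measured genes), with a median of 0.16. In the same comparison 1 (Jak1) was 2-fold or more lower by its brightest probe set, a share near that of all measured genes (2.8%). Against EGFP cells 1 of 37 was at least 2-fold higher (0.347% of all measured genes) and 0 lower (2.84%), with a median of 0.0012.

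Among other interferon-stimulated genes, of which 12 were measured against untreated cells, the median log2 ratio was 0.24 in DGKzeta and also in EGFP cells. Tor3a, an endoplasmic reticulum ATPase, had signals of 227 in DGKzeta and 181 in EGFP cells, against 119 in untreated cells, but its other probe set gave log2 ratios over untreated of 0.03 and -0.09. Rtp4, a chaperone of receptors, had 171 in DGKzeta and 121.6 in EGFP cells, against 62.0 in untreated cells, which is under the floor. It was thus at least 1.59-fold higher in DGKzeta and at least 1.14-fold higher in EGFP cells than in untreated cells. Its other probe set was under the floor on every array. By floored ratios, which are only a bound for genes such as Rtp4, this list held no gene 2-fold apart in the 3 comparisons.

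Genes of sensing and induction had medians over untreated of 0.24 in DGKzeta and 0.03 in EGFP cells. Mavs, the mitochondrial adaptor of RNA sensors, had signals of 729.7 in DGKzeta and 536 in EGFP cells, against 271 in untreated cells by its brightest probe set (log2 ratios over untreated of 1.43 and 0.99). Its other probe set gave log2 ratios of -0.11 in DGKzeta and 0.40 in EGFP cells, so the probe sets disagree in direction for DGKzeta. Tank, a scaffold of the kinases that activate Irf3, had 833 in DGKzeta and 368 in EGFP cells, against 376 in untreated cells. It was the 1 pathway gene at least 2-fold higher in DGKzeta cells than in EGFP cells, by its sole probe set. Ddx3x, in the same list, had a log2 ratio of 0.36 in DGKzeta cells over untreated by its brightest probe set. Its other probe sets gave -1.57 and -2.05, so they disagree in direction.

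Receptor genes were measured on every array, some only a little above the floor. Ifnar1, a chain of the type I interferon receptor, had 343 in DGKzeta and 342.6 in EGFP cells, against 492 in untreated cells, a log2 ratio over untreated of -0.52 in both. Ifngr1, the ligand-binding chain of the interferon-gamma receptor, had 196 in DGKzeta and 118 in EGFP cells, against 117 in untreated cells. Among JAK-STAT genes, medians over untreated were -0.03 in DGKzeta and -0.01 in EGFP cells. Jak1, a kinase of both receptors, was the 1 gene at least 2-fold lower in DGKzeta cells by its brightest probe set (log2 ratio -1.12 over untreated). Its next probe set gave 0.04, and the remaining one, under the floor in DGKzeta cells, had 31.8 in DGKzeta and 114 in EGFP cells, against 141 in untreated cells, a bound of -0.39 over untreated. By their brightest probe sets, Stat3 and Socs3 had log2 ratios of 0.47 and 0.24 in DGKzeta cells over untreated. Their other probe sets gave a bound of -2.14 for Stat3, and -0.28 and -1.08 for Socs3, so the probe sets disagree in direction. Of the proteins that assist or replace members, Canx, the chaperone calnexin, was at 1.26 in DGKzeta and 1.05 in EGFP cells over untreated, but its next probe sets gave 0.38 and 0.51 in DGKzeta cells, and 0.43 and 0.19 in EGFP cells.

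**Figure D4:**
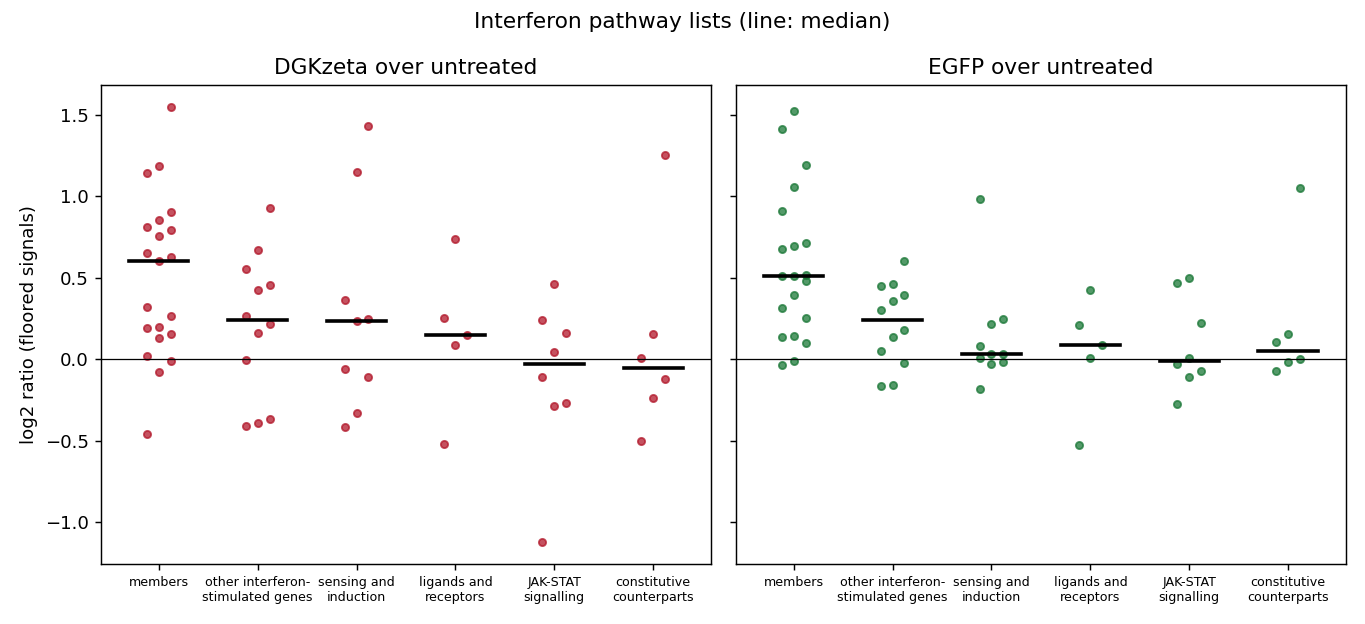
Log2 ratios over untreated of members and of the further pathway lists, 1 point per measured gene by its brightest probe set, with the median as a line, for DGKzeta (left) and EGFP (right). The members' medians of 0.61 and 0.51 lie above those of the other lists, the highest of which is 0.24 in each panel. Members and lists were chosen with earlier results of these data known. Measured genes under the floor in untreated cells, among them Ifit1, Ifit3, Ccl5 and Cxcl10, had to be above 0.

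Leukocytes express several of these genes, so their markers were read on the same arrays. Of 10 macrophage and leukocyte markers, 1 was above the floor in DGKzeta cells, 1 in EGFP cells and 2 in untreated cells. The summed signal of the 10 was 635 in DGKzeta and 732 in EGFP cells, against 790 in untreated cells, most of it from Cd14. Ptprc, the pan-leukocyte marker CD45, had 3.53 in DGKzeta and 0.672 in EGFP cells, against 11.4 in untreated cells. Other markers went the other way: Adgre1 had 34.9 in DGKzeta and 28.3 in EGFP cells, against 21.8 in untreated cells. Fcer1g had 3.92 in DGKzeta and 40.2 in EGFP cells, against 5.79 in untreated cells. Signals this far under the floor give no direction. Of 8 myoblast markers, 5 were measured on each array, and Myod1, Myog and Cav3 were under the floor on every array. In RNA of a whole culture, a larger share of responding cells and more RNA in each of them cannot be told apart.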

How the data were processed

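Per the labels' protocols, total RNA from each of the 3 cultures went through one-cycle Affymetrix labelling. What the authors deposited is a linear intensity per probe set, and the submitters' processing notes name MAS5. Neither the MAS5 version nor the scaling target is given in the sources read. The mean between each array's 2nd and 98th percentile was 499.9 or 500.0, so each array's deposited intensities appear to share 1 scaling target; no further scaling was applied.

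Of 22690 probe sets, 20380 carry 1 gene symbol, 691 several and the others none or are controls; 20351 symbols equal those of the RefSeq table (GRCm38.p6, used for names and promoters). A gene is represented by its brightest probe set, by mean log2 signal over the arrays. Values under the floor, at the pooled 50th percentile, were raised to it before log2. Members and lists were chosen with earlier results of these data known. Named genes are all members, Dgkz, and of each pathway list the genes 2-fold apart or else those with the largest ratios. The interferon genes, Psmb5, Psmb6, Psmb7 and marker genes were added. Promoters of genes that passed the floor in transfected cells alone were added after values were seen, as were Ddx3x, Stat3 and Socs3 for their other probe sets. No test across arrays is possible, and the number of arrays limits the precision. Alternatives were other scalings, floors, a pseudocount, other choices of probe set and other fold limits. The counting was tested on simulated data. Python 3.11.15, numpy 2.4.6, pandas 2.3.3 and matplotlib 3.10.9 were used.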

Additional observations from a re-analysis of the deposited data

Results flagged for a closer look

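A probe set that no comparison uses, since its annotation lists both Isg15 and Gm9706, had a signal above untreated cells. It had 260 in DGKzeta and 335 in EGFP cells, against 74.6 in untreated cells, at least 2.42-fold and at least 3.12-fold higher. Its signal cannot be assigned to either gene. The other unused probe set that covers a member, shared by Ifi204 and 3 relatives, was above the floor on every array and 1.77-fold higher in DGKzeta and 1.29-fold higher in EGFP cells than in untreated cells, against 2.21-fold and 1.43-fold for the probe set of Ifi204 alone. Groups of 1 array could not be searched for samples that stand apart.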

How the results depend on the processing

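The members' median over untreated was above 0 under each of 10 alternatives, from 0.04 to 0.87 for DGKzeta and from 0.25 to 0.69 for EGFP, and its distance above the median of all genes, compared after seeing the data, ran from 0.15 to 0.77 and from 0.25 to 0.66. The median of DGKzeta over EGFP was above 0 under 5 of 10. With quantile normalization that median was 0.13, and DGKzeta over untreated 0.72. Setting the arrays to equal medians over every named probe set moves the median of all genes from -0.02 to 0.33 in DGKzeta over EGFP and to 0.24 over untreated; it gave 0.27 for DGKzeta over EGFP, 0.87 over untreated with 8 members 2-fold higher, and 0.41 for EGFP over untreated. Equal medians over measured probe sets gave 0.057 for DGKzeta over EGFP. A floor at the 25th percentile, which admits more members, put 10 members 2-fold higher in DGKzeta and 10 in EGFP cells than in untreated (median 0.69 for EGFP), 1 lower in DGKzeta than in untreated and 1 lower than in EGFP cells. At the 75th percentile, where 6 members or fewer are measured, 0 were higher than untreated in either, with medians of 0.23 for DGKzeta over untreated and 0.081 over EGFP. A pseudocount of 3.17 gave 6 higher and 1 lower in DGKzeta than in untreated, with medians of 0.75 for DGKzeta and 0.59 for EGFP. The median of DGKzeta over untreated was 0.32 with the mean over probe sets and also without suffixes _x_at and _s_at. Second probe sets, at hand for 3 measured members, gave -0.47 for DGKzeta over EGFP, 0.040 and 0.25 over untreated for DGKzeta and EGFP, and 0 members 2-fold higher in either. Members measured on all 3 arrays left 1 higher in DGKzeta and 2 in EGFP cells. The 1.5-fold limit gave 11 and 8 higher than untreated, and 1 higher and 2 lower in DGKzeta than in EGFP cells; the 3-fold limit gave 0 and 0 higher than untreated. Where no construction is named, the cause was not tested. No member at least 2-fold apart changed sign. For Ifit1 and Ccl5 over untreated cells, any floor that lies above their untreated signal fixes this sign, so it is no check there. No paired analysis was possible because each group has 1 array.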
